A study of Mus musculus with 6 samples.

Results

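The genes described here are 9 rows of the expression table, out of 56980, which encode 2 vascular adhesion ligands and the leukocyte integrin subunits that bind them. They were chosen by name, as a set of partners, with earlier results of these data known: Vcam1 and Icam1, then Itga4, Itgb1 and Itgb7, then Itgal, Itgam, Itgax and Itgb2. All 9 were found by their Ensembl mouse identifiers, and all passed the filter on low values described below. The samples were tumor-associated macrophages (TAMs) sorted from tumors of ID8, a mouse ovarian epithelial cancer line, 2 months after the line was injected into the peritoneal cavity. The host was either a wild-type C57BL/6 mouse (WT, 3 libraries) or a C57BL/6-background mouse lacking the complement C5a receptor, C5aR (C5aR-/-, 3 libraries). Mice were 6 to 8 weeks old when bought, the injected cancer cells were the same in both groups, and the deletion was present in every cell of the host rather than in macrophages alone. The sort kept live CD45+CD11b+Ly6G-F4/80+ cells. CD11b is the protein of Itgam, so one of the 9 genes was also a gate of the sort. The study describes more mice per group for its RNA sequencing than the 3 libraries analysed here, the number of mice behind each library is not given in the sources used here, and p-values measure only the spread between these libraries.

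Integrins are pairs of 1 alpha and 1 beta subunit that hold a cell to its neighbors or to the matrix, and they bind only weakly until talin and kindlin proteins engage the beta tail. The alpha4 subunit (Itga4) pairs with beta1 (Itgb1) to bind VCAM1 and fibronectin, or with beta7 (Itgb7) to bind MAdCAM1 and VCAM1. The beta2 subunit (Itgb2) pairs with alphaL (Itgal) as LFA-1, with alphaM (Itgam) as Mac-1 and with alphaX (Itgax) as complement receptor 4. LFA-1 and Mac-1 bind ICAM1, while Mac-1 and complement receptor 4 also bind iC3b, a fragment of complement C3. VCAM1 and ICAM1 are immunoglobulin-like ligands that NF-kB induces on inflamed endothelium, and both are also made by some macrophages and by mesothelial and stromal cells.

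The values are in TPM, a share of the transcripts of a library, and are scaled for transcript length and so can be compared between genes. Every library sums to 1000000 TPM, and the read depth behind a value is unknown. C5ar1, the deleted gene, was at 86.51, 37.32 and 16.18 TPM in the WT libraries and at 0.38, 0.11 and 0.05 in the C5aR-/- libraries. The 10 macrophage markers summed to between 2529 and 8678 TPM in WT and between 2541 and 8752 in C5aR-/- TAMs, more of it from Lyz2 (1151 to 5812) than from any other marker. Epithelial markers (1669 to 2211 TPM over all libraries) and mesothelial markers (1203 to 2567) were also present, with overlapping groups. Krt19, at 433 to 1102 TPM, is on both of these lists, so their sums are not independent. Whether these transcripts came from host cells or from the injected ID8 cells was not tested. Summed neutrophil markers (607 to 2288 TPM in WT, 25.04 to 367 in C5aR-/-), peritoneal macrophage markers (238 to 1416 against 99.5 to 212) and mast cell markers (169 to 200 against 68.5 to 90.1) were lower in every C5aR-/- library. Monocyte markers were also lower, by a narrow margin (142.62 to 186.35 against 53.41 to 142.52). These 4 lists move with the genotype, so each difference below stands beside them, and their part in it was not tested. In sorted bulk RNA, fewer cells of a type and less RNA of that gene per cell cannot be told apart.

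The upstream sequences of 6 of the 9 genes were found in the RefSeq promoter table (GRCm38.p6), as 250 bases before and 50 bases after the annotated start. Vcam1, Itgal and Itgb2 are not in that table. The Icam1 and Itgb7 windows are shown because these are a ligand and an integrin whose differences contrast below. The Itgam window is shown because Itgam is a gate of the sort and had the widest range of the 9 over the libraries, from 35.64 to 273.13 TPM. Each runs 5′ to 3′ on the coding strand. Capitals mark GGAAATTCC, a sequence of the kind NF-kB binds, and TATAAA, a core promoter box that positions transcription starts. They also mark GAGGAA, the core bound by the myeloid factor PU.1, which reads TTCCTC where it lies on the opposite strand.
Icam1, chr9:21015690-21015989, plus strand: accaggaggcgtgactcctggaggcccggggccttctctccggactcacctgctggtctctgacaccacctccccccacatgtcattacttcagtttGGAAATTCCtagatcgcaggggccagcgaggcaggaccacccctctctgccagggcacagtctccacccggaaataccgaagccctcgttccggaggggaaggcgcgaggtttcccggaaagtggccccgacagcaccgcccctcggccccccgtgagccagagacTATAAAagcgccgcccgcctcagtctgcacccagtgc
Itgb7, chr15:102231886-102232185, minus strand: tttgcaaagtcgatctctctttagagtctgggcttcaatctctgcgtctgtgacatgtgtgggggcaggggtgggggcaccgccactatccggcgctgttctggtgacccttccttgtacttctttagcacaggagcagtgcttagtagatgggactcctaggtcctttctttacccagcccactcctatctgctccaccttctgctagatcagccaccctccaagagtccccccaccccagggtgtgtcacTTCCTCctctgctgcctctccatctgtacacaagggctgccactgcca
Itgam, chr7:128062390-128062689, plus strand: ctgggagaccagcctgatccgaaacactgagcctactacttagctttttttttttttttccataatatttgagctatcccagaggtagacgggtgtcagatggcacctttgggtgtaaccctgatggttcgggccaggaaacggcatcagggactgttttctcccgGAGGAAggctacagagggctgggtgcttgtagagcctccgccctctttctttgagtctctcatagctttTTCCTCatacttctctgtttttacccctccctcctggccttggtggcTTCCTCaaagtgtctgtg
Both strands were searched in all 32851 windows of the table, and the 3 motifs do not overlap in the windows shown. GGAAATTCC is held by 0.317% of the windows, and of the 6 genes only Icam1 has it. TATAAA is held by 13.6% of windows, and again only Icam1 of the 6 has it. There it lies 13 bases after the RefSeq start that defines the window, and 32 bases before the start annotated by GENCODE. GAGGAA is held by 28.3% of windows. Itgam has it 3 times, Itgb7 once and Itgb1 once. The Itgb7 match lies 2 bases after the RefSeq start and the last Itgam match 32 bases after it. A match describes the letters in the window and not a bound site.

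The 9 transcripts spanned more than an order of magnitude in WT TAMs. Itgb1 had the highest mean at 217 ± 17.7 TPM (SD, n = 3), followed by Itgam at 141 ± 117 and Itgb2 at 130 ± 64.3. Itgb7 (67.2 ± 9.53) and Icam1 (64.9 ± 7.81) formed a middle pair. Itgal (16.5 ± 7.99), Itga4 (15.6 ± 2.72), Vcam1 (11.6 ± 3.62) and Itgax (8.003 ± 5.11) were lowest. The only neighbors in that order whose libraries did not overlap were Itgb2 and Itgb7, and Icam1 and Itgal. In C5aR-/- TAMs the order by mean was Itgb1 (181 ± 43.0), Itgb2 (89.8 ± 39.4), Itgam (78.0 ± 37.1), Icam1 (62.0 ± 6.66), Itgb7 (31.2 ± 11.001), Vcam1 (28.4 ± 13.8), Itgax (16.1 ± 5.55), Itga4 (15.4 ± 12.4) and Itgal (14.7 ± 5.38). There the libraries did not overlap between Itgb1 and Itgb2 or between Icam1 and Itgb7, while the lowest 5 all overlapped their neighbors. Itgb7 thus lay among the middle genes in WT and overlapped Vcam1 in C5aR-/- TAMs.

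**Figure D1:**
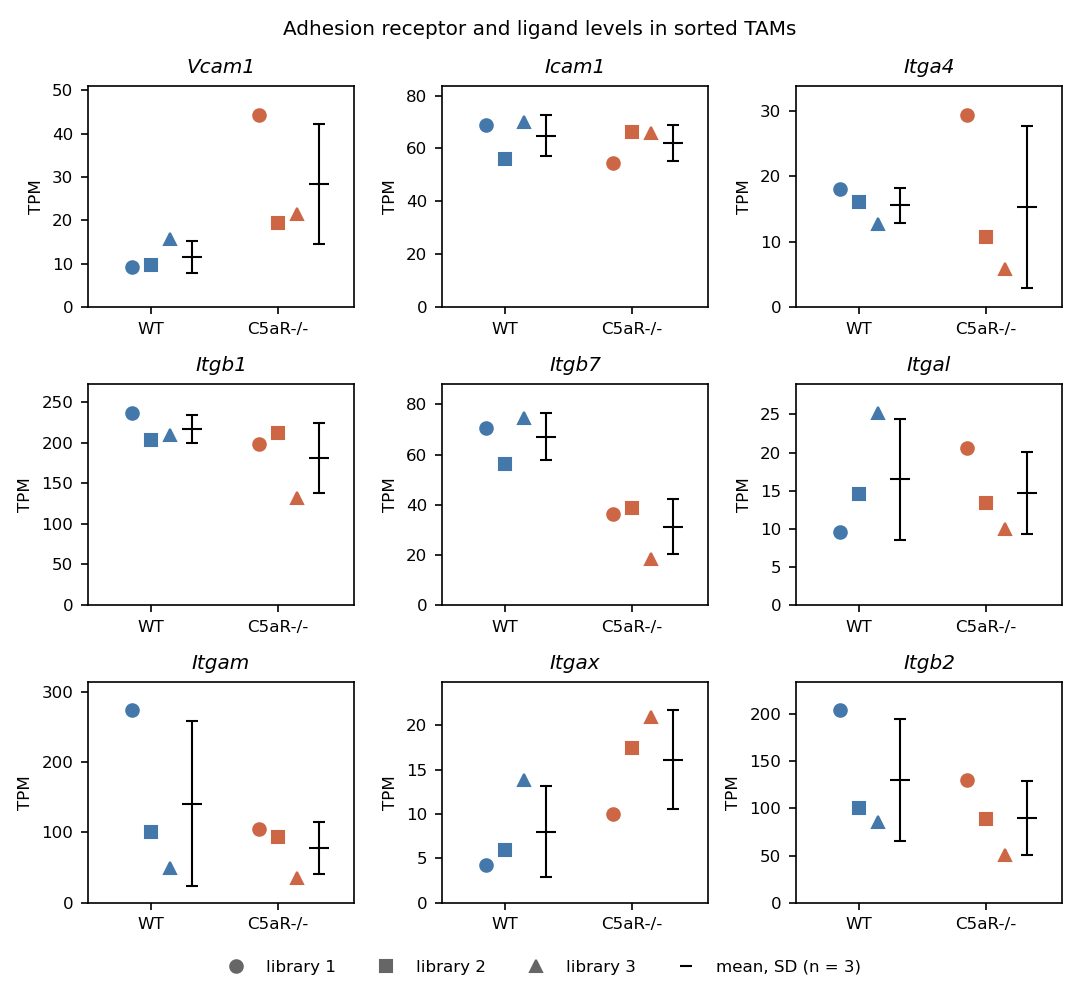
Level of each of the 9 genes in TPM (vertical axis, from 0) in the 3 WT and 3 C5aR-/- libraries, one panel a gene, with circles, squares and triangles for libraries 1, 2 and 3 and bars for mean and SD (n = 3). Vcam1 lies higher and Itgb7 lower in all C5aR-/- libraries, and in the other 7 genes the groups overlap.

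Across the 9 genes, C5aR-/- TAMs had more Vcam1 and less Itgb7 than WT TAMs, each by slightly over 2-fold, with no overlap between the groups. The test was limma on log2(TPM + 1), with a stricter threshold (adjusted p under 0.05 and at least 2-fold) and a looser, unadjusted one (p under 0.05 before adjustment and at least 2-fold). The stricter one was passed by none of the 9 and by none of the 14776 genes tested (0% of all genes). The smallest adjusted p of any gene was 0.0666, while 2133 genes had p under 0.05 before adjustment, whatever their fold. The looser threshold was passed by 2 of the 9, 1 higher and 1 lower, against 4.96% of all genes (733, of which 314 were higher). Groups that did not overlap were found for the same 2 of the 9, against 21.3% of all genes. The median difference of the 9 was -0.28 on the log2 scale, against -0.05 for all genes, with 2 of the 9 higher and 7 lower in C5aR-/- TAMs. With so few members, these counts are given as a description.

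Of the 2 ligands, Vcam1 (ENSMUSG00000027962, chr3:116109949-116129688, minus strand) differed between the groups and Icam1 did not detectably differ. Vcam1 encodes the ligand of the alpha4 integrins. It was at 9.35, 9.66 and 15.76 TPM in WT TAMs and at 44.35, 19.43 and 21.43 in C5aR-/- TAMs. The lowest C5aR-/- library lay above the highest WT library, and C5aR-/- TAM 1 was well above the rest. The difference was 1.16 on the log2 scale (SE 0.36, 95% confidence interval 0.31 to 2.01), a 2.24-fold higher level, with an unadjusted p of 0.0145 and an adjusted p of 0.232 by limma. Without C5aR-/- TAM 1 it was 0.80, under the 2-fold threshold, and over all 13 alternative settings the adjusted p ranged from 0.151 to 0.681. Of all genes tested, 5.16% had a larger difference in either direction.

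Vcam1 is expressed by activated endothelium, whose 10 markers summed to 109 to 141 TPM in WT and 75.1 to 125 in C5aR-/- libraries, most of it from Esam (62.8 to 125). Of the other 9, Pecam1 was at 6.84 to 12.54 TPM, Tek at 0.16 to 14.32 with its highest value in C5aR-/- TAM 1, and Kdr at 0.54 to 5.49. Vwf was at most 2.43 TPM, Cdh5 0.21, Tie1 0.08, Emcn 0.09 and Egfl7 0.46, and Cldn5 was listed at 0 in all. Mesothelial markers, which stand for another cell type known to make VCAM1, summed to 1971 to 2567 TPM in WT and 1203 to 2053 in C5aR-/- libraries, with 7 of the 8 lower by mean and Msln higher without overlap (153 ± 23.5 and 280 ± 10.8 TPM). Fibroblast markers summed to 413 to 647 TPM against 444 to 567, most of it from Dcn (180 to 548). Col1a1 was at 3.52 to 10.82 TPM in WT and at 1.21, 43.34 and 235.85 in C5aR-/- libraries, Pdgfra was at 4.44 to 26.72, and Lum and Pdgfrb were below 1 TPM in every library. Of the 10 macrophage markers, 8 had a higher mean in C5aR-/- libraries, with a median difference of 0.53. All 8, Cd68 and Mrc1 among them, were highest in C5aR-/- TAM 1, as Vcam1 was. Within WT the order was not shared. The macrophage marker sum was 8678, 3586 and 2529 TPM in WT TAM 1, 2 and 3, where Vcam1 was at 9.35, 9.66 and 15.76. The part of each of these cell types, and of injected ID8 cells, in the Vcam1 difference was not tested.

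Icam1 (ENSMUSG00000037405, chr9:21015985-21028817, plus strand) encodes the ligand of LFA-1 and Mac-1. It was at 68.75, 55.89 and 70.01 TPM in WT TAMs and at 54.36, 66.12 and 65.66 in C5aR-/- TAMs. All 6 libraries lay in one narrow range, the least variable of the 9 genes. The difference was -0.06 (SE 0.15, adjusted p = 0.882 by limma), with a 95% confidence interval of -0.42 to 0.30, so a 2-fold difference lies outside the interval. Of all genes tested, 85.9% had a larger difference. The Icam1 level was several times that of Vcam1 in WT TAMs, and in C5aR-/- TAM 1 the levels of both ligands were close (54.36 and 44.35 TPM).

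The alpha4 integrin genes divided: Itgb7 was lower in C5aR-/- TAMs, while Itga4 and Itgb1 overlapped between the groups. Itgb7 (ENSMUSG00000001281, chr15:102215995-102231944, minus strand) encodes the beta subunit best known from gut-homing lymphocytes, which mast cell progenitors also carry. It was at 70.60, 56.40 and 74.50 TPM in WT TAMs and at 36.30, 38.65 and 18.53 in C5aR-/- TAMs. Every C5aR-/- library lay below every WT library, and C5aR-/- TAM 3 was the lowest. The difference was -1.14 (SE 0.29, 95% confidence interval -1.84 to -0.45), 0.453 times the WT level, with an unadjusted p of 0.0063 and an adjusted p of 0.177 by limma. Without C5aR-/- TAM 3 it was -0.82, under the 2-fold threshold, and over the 13 settings the adjusted p ranged from 0.0915 to 0.526.

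Mast cell transcripts moved the same way as Itgb7: 6 of the 7 markers were lower in every C5aR-/- library, among them the protease genes Mcpt4, at 12.02 to 22.38 TPM in WT and at most 0.25 in C5aR-/- TAMs, and Tpsb2, at 10.45 to 22.18 and at most 1.23. The seventh, Kit, the stem cell factor receptor, was higher (30.6 ± 2.19 and 69.3 ± 15.4 TPM). Their part in the Itgb7 difference was not tested. T and NK cell markers summed to 18.6 to 84.2 TPM in WT and 15.6 to 54.0 in C5aR-/- libraries, and B cell markers to 33.7 to 166 against 9.16 to 168, so both lymphocyte lists overlapped.

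Itga4 (ENSMUSG00000027009, chr2:79255426-79333123, plus strand) was at 18.05, 16.04 and 12.67 TPM in WT TAMs and at 29.43, 10.78 and 5.90 in C5aR-/- TAMs. The C5aR-/- libraries lay on both sides of the WT range. The difference was -0.28 (SE 0.52, adjusted p = 0.839 by limma), with an interval of -1.51 to 0.95 that leaves 2-fold lower levels possible. It changed sign with the library left out, from -0.87 without C5aR-/- TAM 1 to 0.20 without C5aR-/- TAM 3. Itgb1 (ENSMUSG00000025809, chr8:128685654-128733200, plus strand), the shared beta subunit of many matrix receptors, was at 236.79, 203.45 and 209.80 TPM in WT and at 198.80, 212.09 and 131.90 in C5aR-/- TAMs. Only C5aR-/- TAM 3 stood well below the others, and the difference was -0.29 (SE 0.20, adjusted p = 0.560 by limma, interval -0.77 to 0.20).

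The 4 genes of the beta2 family did not separate by genotype. Itgb2 (ENSMUSG00000000290, chr10:77530252-77565708, plus strand), the common beta subunit, was at 203.69, 100.40 and 85.83 TPM in WT TAMs and at 129.93, 88.49 and 51.12 in C5aR-/- TAMs. WT TAM 1 was highest and C5aR-/- TAM 3 lowest, and the difference was -0.52 (SE 0.43, adjusted p = 0.624 by limma, interval -1.55 to 0.51). Itgam (ENSMUSG00000030786, chr7:128062640-128118491, plus strand), the CD11b gene, was at 273.13, 100.59 and 49.23 TPM in WT and at 104.59, 93.73 and 35.64 in C5aR-/- TAMs. The spread within WT exceeded the difference between the groups, which was -0.64 (SE 0.67, adjusted p = 0.703 by limma, interval -2.25 to 0.96) and 0.0026 without WT TAM 1. The library with the most Itgam and Itgb2 in each group, TAM 1, also had the highest macrophage marker sum of its group (8678 TPM in WT and 8752 in C5aR-/-). Whether the makeup of the sorted cells sets the Itgam and Itgb2 levels was not tested.

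Itgal and Itgax, the other beta2 partners, lie on the same chromosome as Itgam. Itgal (ENSMUSG00000030830, chr7:127296260-127335138, plus strand), the LFA-1 alpha subunit, was at 9.61, 14.58 and 25.24 TPM in WT TAMs and at 20.56, 13.39 and 10.03 in C5aR-/- TAMs. Both groups covered nearly the same range, and the difference was -0.11 (SE 0.39, adjusted p = 0.920 by limma, interval -1.04 to 0.82). T and NK cell markers summed to 18.6, 50.3 and 84.2 TPM in WT and to 54.0, 42.5 and 15.6 in C5aR-/- libraries. B cell markers summed to 140, 166 and 33.7 TPM against 168, 54.6 and 9.16. The part of lymphocytes in the Itgal values was not tested. Itgax (ENSMUSG00000030789, chr7:128129547-128150657, plus strand), the CD11c gene, was at 4.26, 5.92 and 13.83 TPM in WT and at 10.05, 17.43 and 20.93 in C5aR-/- TAMs. C5aR-/- TAM 1 lay below WT TAM 3, so the groups overlapped. The difference was 1.02 (SE 0.44, interval -0.04 to 2.07, fold 2.02), with an unadjusted p of 0.0561 and an adjusted p of 0.361 by limma, just short of the unadjusted threshold. It passed that threshold without WT TAM 3 (1.45) and without C5aR-/- TAM 1 (1.30). CD11c also marks dendritic cells, whose 6 markers summed to 41.8 to 51.4 TPM in WT and 31.0 to 88.5 in C5aR-/- libraries. The part of dendritic cells in the Itgax values was not tested.

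**Figure D2:**
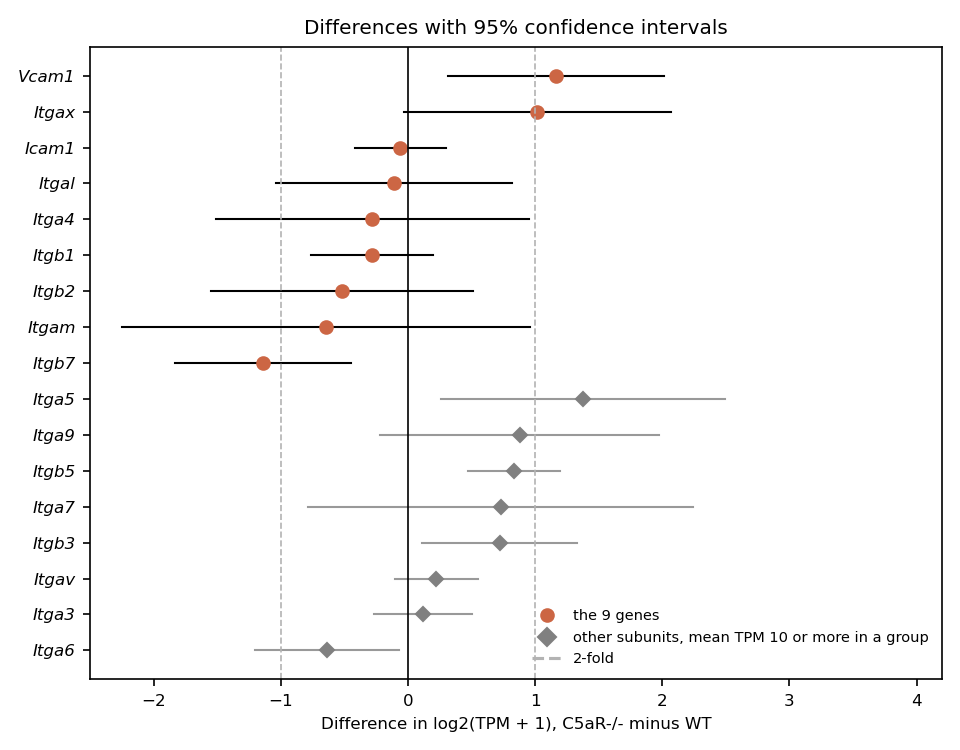
Difference in log2(TPM + 1), C5aR-/- minus WT, with 95% confidence intervals from limma, for the 9 genes (circles) and the other integrin subunits with a mean of at least 10 TPM in a group (diamonds), with dashed lines at 2-fold. Of the 9 genes, only the intervals of Vcam1 (0.31 to 2.01) and Itgb7 (-1.84 to -0.45) leave out 0.

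**Figure D3:**
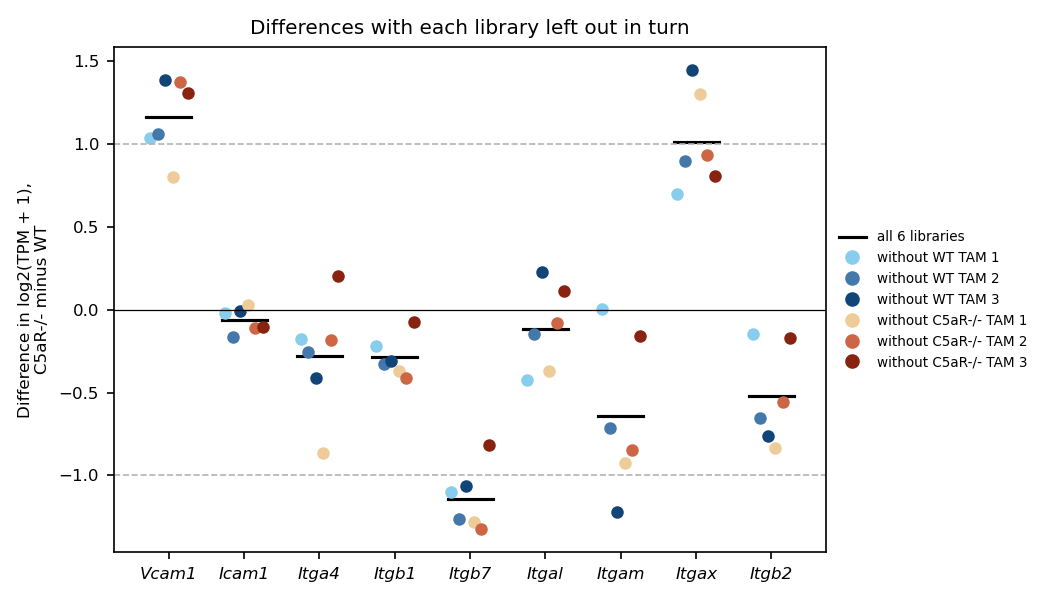
Difference in log2(TPM + 1) of each of the 9 genes with all 6 libraries (black lines) and with each library left out in turn (points), with dashed lines at 2-fold. Vcam1 ranges from 0.80 to 1.39, Itgax from 0.70 to 1.45 and Itgb7 from -1.33 to -0.82, while Icam1, Itga4, Itgal and Itgam have points on both sides of 0.

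Ratios of 2 transcripts within a library do not depend on the library total, and 16 of them were compared by two-sided exact permutation tests, for which the smallest possible p with 3 against 3 libraries is 0.1. No ratio could therefore pass 0.05, and the adjusted p over the 16 was 0.533 or higher. The log2 ratio of Itgb7 to Itgb1 was -1.68 ± 0.18 in WT and -2.54 ± 0.20 in C5aR-/- TAMs (SD, n = 3, exact p = 0.1), or 0.552 times the WT ratio, with no overlap. Relative to Ptprc, the gene of the CD45 gate, Itgb7 was at 0.542 times its WT ratio, also without overlap (exact p = 0.1). The log2 ratio of Vcam1 to Ptprc was -2.49 ± 0.54 in WT and -1.07 ± 0.58 in C5aR-/- TAMs (SD, n = 3, exact p = 0.1), 2.68-fold higher and without overlap. Ptprc itself was at 67.53, 77.03 and 60.25 TPM in WT and at 102.50, 59.86 and 29.44 in C5aR-/- TAMs, so the groups overlapped. Ly6g, excluded by the sort, was at most 4.94 TPM in WT and 0.56 in C5aR-/- libraries. The ratios of Itgb7 to Itgb1, Itgb7 to Ptprc and Vcam1 to Ptprc were the only ones of the 16 whose groups did not overlap. Relative to Adgre1, the F4/80 gene, the Vcam1 difference was 1.29 with overlapping groups (exact p = 0.3), since Adgre1 itself varied from 25.35 to 114.35 TPM in WT TAMs.

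The balance among the beta2 alpha subunits varied more between libraries than between genotypes. Of the summed TPM of Itgal, Itgam, Itgax and Itgad, Itgam made up 95.1%, 83.0% and 55.7% in the WT libraries and 77.4%, 75.2% and 53.5% in the C5aR-/- libraries. Itgax made up 1.48%, 4.89% and 15.7% in WT and 7.43%, 14.0% and 31.4% in C5aR-/- libraries. The Itgal share was 3.35%, 12.03% and 28.6% in WT and 15.2%, 10.7% and 15.1% in C5aR-/- libraries, and Itgad stayed under 0.1% throughout. Itgam was thus the main alpha transcript in all 6 libraries, while the third library of each group had the smallest Itgam share and the largest Itgax share of its group. The ratio of Itgax to Itgb2 differed by 1.54 on the log2 scale (exact p = 0.2), that of Itgal by 0.41 (exact p = 0.7) and that of Itgam by -0.12 (exact p = 0.8), all with overlapping groups. The ratio of Itga4 to Itgb1 differed by less than 0.01 (exact p = 1). Itga4 was the scarcer partner in all libraries, at 5.90 to 29.43 TPM against 150 to 307 TPM for Itgb1 and Itgb7 together.

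**Figure D4:**
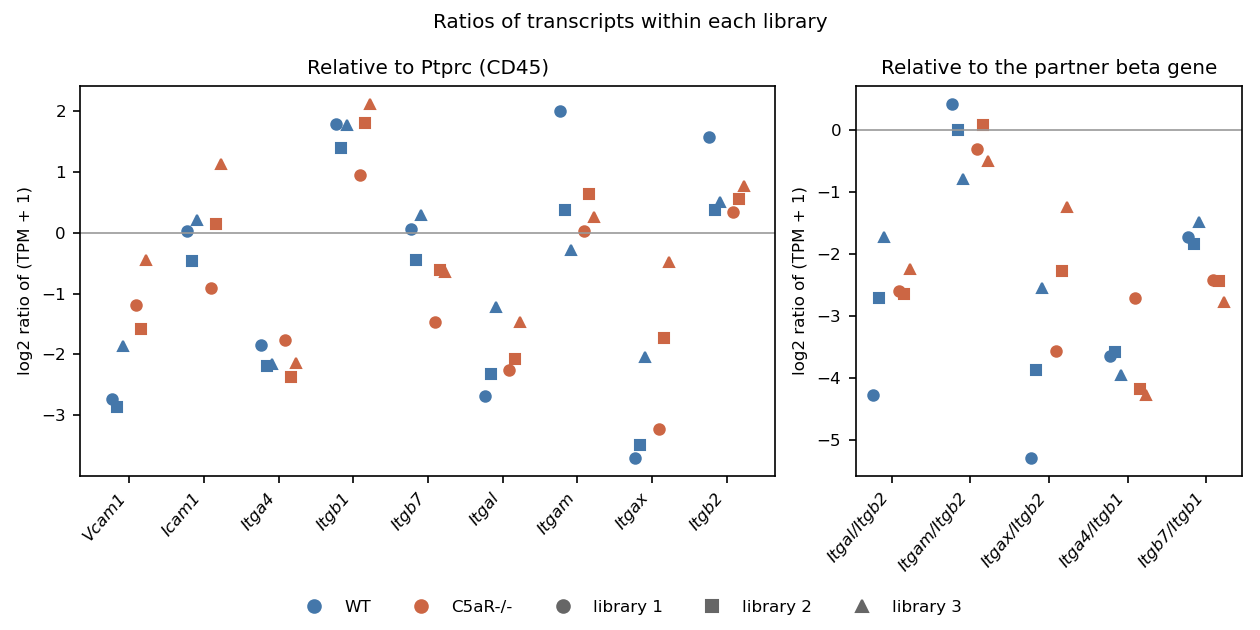
Log2 ratios of (TPM + 1) within each library (vertical axes) for the 9 genes relative to Ptprc (left) and for alpha subunits and Itgb7 relative to Itgb2 or Itgb1 (right), with WT in blue, C5aR-/- in orange and one marker shape for each library number. The groups are apart for Vcam1 and Itgb7 relative to Ptprc and for Itgb7 relative to Itgb1, and they overlap for the rest.

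The other integrin subunits, which mostly serve as matrix receptors, leaned toward higher levels in C5aR-/- TAMs. Of the 20 listed, 14 passed the filter, 11 of them higher and 3 lower, with a median difference of 0.28 against -0.05 for all genes. Without C5aR-/- TAM 2, 9 were higher and 5 lower, with a median of 0.16, and with no filter 12 of 20 were higher, with a median of 0.15. Their summed level was 458 to 500 TPM in WT and 553 to 572 in C5aR-/- libraries, without overlap. None passed the adjusted threshold and 1 passed the unadjusted one, against 4.96% of all genes. Groups did not overlap for 6 of the 14, against 21.3% of all genes, with Itgav and Itga11 apart only by narrow margins. The one that passed was Itga5, the alpha subunit of the classical fibronectin receptor, at 25.08, 18.43 and 26.32 TPM in WT and 37.44, 45.44 and 134.36 in C5aR-/- TAMs. C5aR-/- TAM 3 was nearly 3 times the next library, and the Itga5 difference of 1.38 (SE 0.47, adjusted p = 0.271 by limma) was 0.82 without it, under 2-fold. Itga5 also missed the looser threshold without WT TAM 2.

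Itgb5, Itgb3 and Itgav, subunits of the vitronectin and osteopontin receptors, were also higher without overlap, Itgav by a narrow margin. Itgb5 was at 67.34, 61.72 and 81.24 TPM in WT and at 116.24, 139.51 and 119.91 in C5aR-/- TAMs. All its libraries kept close to their group, and the difference of 0.83 (SE 0.15, unadjusted p = 0.001, adjusted p = 0.0986 by limma) was under 2-fold in all 13 alternative settings. Itgb3 differed by 0.72 (10.5 ± 1.65 and 18.4 ± 5.71 TPM, adjusted p = 0.286 by limma). Itgav, the alpha subunit common to both receptors, differed by 0.22 (44.9 ± 4.48 and 52.5 ± 4.15 TPM, adjusted p = 0.507 by limma). Its highest WT value was 48.70 TPM and its lowest C5aR-/- value 48.71. Itga6, a laminin receptor subunit, was at 144 ± 39.8 TPM in WT and 90.1 ± 12.3 in C5aR-/- TAMs, with overlap and a difference of -0.64 (adjusted p = 0.306 by limma). Itga3, another laminin receptor subunit, was at 141 ± 20.0 and 152 ± 19.3 TPM. Itga7 (6.80 ± 5.34 and 12.4 ± 10.3 TPM) and Itga9 (5.22 ± 1.40 and 11.7 ± 7.38 TPM) varied widely and overlapped. The remaining subunits without overlap are outside the naming rule and are named after their values were seen. Itga11 (2.09 ± 0.62 and 2.99 ± 0.26 TPM) was higher and Itgb8 (5.41 ± 0.94 and 3.90 ± 0.25 TPM) lower. The Itga11 margin was also narrow, with a highest WT value of 2.68 TPM and a lowest C5aR-/- value of 2.70. Epithelial and mesothelial cells also express several of these subunits. The epithelial marker sums given above overlapped between the groups, but Krt8 was higher in C5aR-/- TAMs without overlap (460 ± 4.66 and 708 ± 73.2 TPM, adjusted p = 0.140 by limma), as was Msln (adjusted p = 0.0922 by limma). The part of these cells, and of injected ID8 cells, in the subunit differences was not tested.

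Among 15 other ligands of these integrins, 9 passed the filter, 2 of them higher and 7 lower, with a median difference of -0.52. That median was -0.32 without WT TAM 1 and -0.28 without C5aR-/- TAM 3. One higher and 2 lower genes passed the looser threshold, which 4.96% of all genes passed, and none the adjusted one. Spp1 encodes osteopontin, a matrix protein that alpha4beta1 and alphav integrins bind. It was at 47.98, 48.30 and 49.56 TPM in WT and at 184.06, 226.08 and 343.86 in C5aR-/- TAMs. The WT libraries were almost equal and all C5aR-/- libraries several times higher, with a difference of 2.30 (SE 0.23, unadjusted p = 2.82e-05, adjusted p = 0.0666 by limma).

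Icam2, an LFA-1 ligand that also marks resident peritoneal macrophages, was at 52.47, 20.90 and 12.92 TPM in WT and at 7.70, 5.12 and 1.02 in C5aR-/- TAMs. The groups did not overlap, and the difference was -2.41 (SE 0.68, adjusted p = 0.210 by limma). The other gene that passed downward was Thy1, a ligand of Mac-1 outside the naming rule and named after its values were seen. Its groups overlapped, and the difference of -1.56 (adjusted p = 0.341 by limma) passed in 6 of the 13 alternative settings. Thy1 is also one of the 9 fibroblast markers. It was at 6.8, 20.08 and 38.62 TPM in WT and at 10.28, 4.63 and 2.98 in C5aR-/- libraries. The T and NK cell marker sum was 18.6, 50.3 and 84.2 TPM in WT and 54.0, 42.5 and 15.6 in C5aR-/- libraries. The fibroblast marker sum was 413, 488 and 647 TPM against 567, 444 and 476. The part of fibroblasts, T cells and other cell types in the Thy1 difference was not tested. Icam2 is itself one of the 6 peritoneal macrophage markers. Of the other 5, all were lower by mean, Prg4 and Timd4 without overlap, while Gata6 differed by -0.16 with overlap (105 ± 12.7 and 93.4 ± 9.55 TPM). Within WT, Gata6 was at 116.16, 91.11 and 107.37 TPM, where Prg4 was at 776.63, 182.25 and 68.32. The part of peritoneal macrophages in the Icam2 difference was not tested. Icam4, another LFA-1 ligand, was at 6.69 ± 0.09 and 3.95 ± 0.79 TPM, without overlap (difference -0.65, adjusted p = 0.234 by limma). Madcam1, the main ligand of alpha4beta7, was at most 0.59 TPM, and the fibrinogen genes Fga, Fgb and Fgg, whose product Mac-1 binds, were listed at 0 in every library.

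Genes that switch integrins on or link them to actin were divided. Of 22 listed, 21 passed the filter, 11 higher and 10 lower, with a median of 0.01, and none passed either threshold. That balance depended on C5aR-/- TAM 1, without which 6 were higher and 15 lower, with a median of -0.16, and 2 passed the looser threshold downward. Of all 14458 genes tested in that setting, 585 passed the looser threshold upward and 635 downward. Fyb, a T cell and myeloid adaptor upstream of integrin activation, was at 42.3 ± 2.13 and 77.3 ± 34.7 TPM, higher without overlap (difference 0.76, adjusted p = 0.323 by limma). Sharpin, which binds alpha tails and holds integrins inactive, was higher by 0.34 without overlap (adjusted p = 0.311 by limma). Rap1a, a small GTPase that activates integrins, was lower, at 74.0 ± 6.11 and 48.4 ± 10.7 TPM (difference -0.62, adjusted p = 0.225 by limma). Skap2, an adaptor that works with Fyb, was lower by 0.27 (adjusted p = 0.377 by limma). These 4 were named because their groups did not overlap. They were the only ones apart of the 21 tested, against 21.3% of all genes.

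NF-kB genes were examined because NF-kB is known to induce both ligands. All 14 passed the filter, 7 higher and 7 lower, with a median of -0.02, and none passed either threshold. Traf1, a TNF receptor adaptor, was higher by 0.25 without overlap (24.3 ± 1.13 and 29.2 ± 4.16 TPM, adjusted p = 0.505 by limma). Sod2, the mitochondrial superoxide dismutase, was lower without overlap, at 103 ± 19.3 and 62.3 ± 9.56 TPM (difference -0.71, adjusted p = 0.203 by limma). Traf1 and Sod2 were the only ones of the 14 whose groups did not overlap, against 21.3% of all genes. Counts of higher and lower genes on this list stayed between 6 and 8 of 14 in every setting. The sign of its median, which was near 0, changed with the scaling (0.01 after quantile normalization and 0.03 after median-of-ratios scaling). With a library left out, the median ranged from -0.14 without C5aR-/- TAM 1 to 0.14 without C5aR-/- TAM 3.

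**Figure D5:**
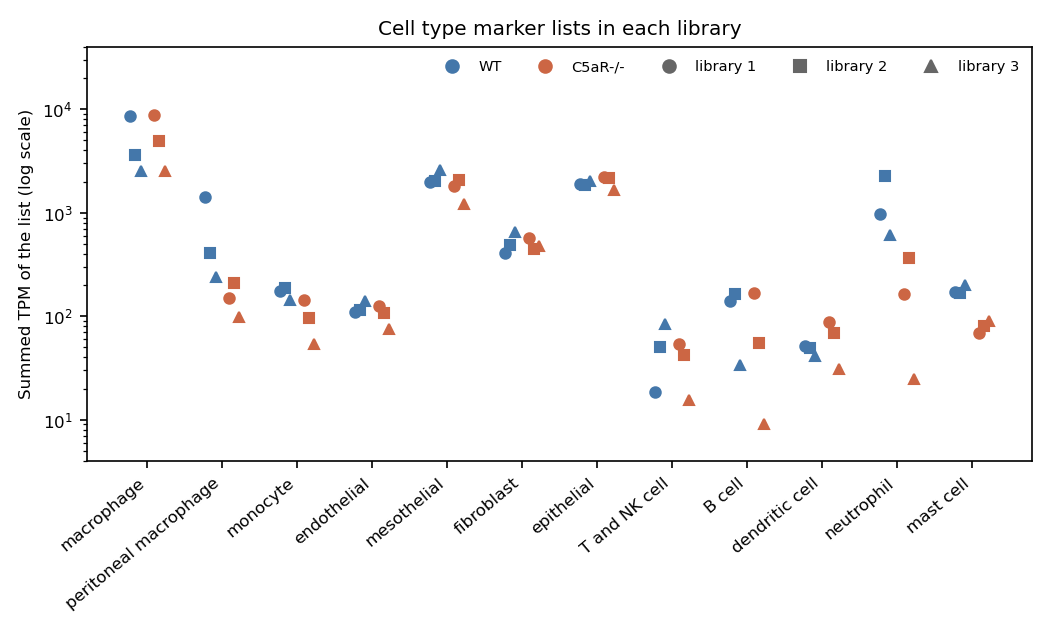
Summed TPM of each cell type marker list (vertical axis, log scale) in every library, with WT in blue, C5aR-/- in orange and one marker shape for each library number. The neutrophil, peritoneal macrophage, mast cell and monocyte sums are lower in all C5aR-/- libraries, the last by a narrow margin, and the other 8 overlap.

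Of the marker genes that the naming rule picked, those not yet given were lower in all C5aR-/- libraries, except Fcgr1. The neutrophil genes S100a8 (352 ± 255 and 49.8 ± 44.4 TPM) and S100a9 (794 ± 539 and 102 ± 104) were lower, as were the mesothelial genes Upk3b (349 ± 50.8 and 148 ± 86.1) and Lrrn4 (41.7 ± 5.55 and 10.6 ± 4.51). Prg4 of peritoneal macrophages (342 ± 380 and 23.6 ± 22.9 TPM) and the collagen gene Col1a2 (12.8 ± 9.82 and 2.17 ± 0.37) were also lower. Fcgr1, a macrophage Fc receptor gene, was higher (11.2 ± 2.52 and 20.6 ± 5.25 TPM). None of these marker genes passed the adjusted threshold.

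Genes that overlap a member could share reads with it. Gm49368 lies on the strand of Itgam and reached 4.09 TPM, so reads of the 2 could be split between them. Cerkl, opposite Itga4, reached 2.52 TPM. The antisense genes Gm47079 at Icam1 and Gm43109 at Vcam1 reached 0.22 TPM and 0.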

How the data were processed

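The RNA libraries, 3 from WT and 3 from C5aR-/- TAMs, were grouped by the sample labels. The authors deposited TPM values per gene. The study's methods name fastp, HISAT2, StringTie and gffcompare, and give FPKM as the unit. The submitters' processing notes also list RSEM, DESeq2 and mm10, without versions, and every deposited column sums to 1000000, as TPM does. The deposited group means were not used. TPM keeps no read depth, so count tests were not run, and errors are the spread over libraries.

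Genes reaching 1 TPM in 3 or more of the 6 libraries were tested with limma 3.58.1 (R 4.3.3; lmFit, eBayes with trend) on log2(TPM + 1), which understates differences of low genes, with Benjamini-Hochberg adjustment over all genes tested. Thresholds were p under 0.05, adjusted or, as a looser rule, before adjustment, and at least 2-fold. Ratios used exact permutation tests (scipy 1.17.1). Each result was recomputed with 0.1 as pseudocount, without the filter, with a minimum of 5 TPM, with quantile and median-of-ratios scaling, eBayes without trend, a replicate block and each library left out, 13 settings in all. Gene positions are from GENCODE M21 (GRCm38, the sequence of mm10).

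The genes and lists were chosen with earlier results of these data known, and genes of the marker lists that are named beyond this rule were chosen after their values were seen. Named were all 9 genes, C5ar1 and the sort genes, the other integrin subunits with a mean of at least 10 TPM in a group, up to 2 genes a direction of each further list with the largest differences among those with groups apart, and the 3 genes most like Vcam1, Icam1 and Itgb2.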

Additional observations from a re-analysis of the deposited data

How the results depend on the processing

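TPM keeps no depth, and 3 libraries a group limit every test. No member passed the adjusted threshold in any of the 13 alternative settings. Vcam1 and Itgb7 passed the unadjusted threshold in 12 of 13 and Itgax in 5 of 13, and the cause of these changes was not tested. Over all genes, the number past the unadjusted threshold was 475 with a minimum of 5 TPM, against 733, and 518 to 1220 with a library left out. The number past the adjusted threshold was 2 with eBayes without trend and 0 to 349 with a library left out, the highest without C5aR-/- TAM 1. With a library left out, 1 to 3 of the 9 genes passed the unadjusted threshold and 2 to 4 had groups apart (1 passed without C5aR-/- TAM 3, and 4 were apart without C5aR-/- TAM 1). Smaller groups are apart more readily, and the share of all genes apart was not computed for these settings. The counts of genes apart therefore cannot be set against the 21.3% found with all 6 libraries.

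With a library left out, the log2 difference ranged from 0.80 to 1.39 for Vcam1, -0.16 to 0.029 for Icam1, -0.87 to 0.20 for Itga4, -0.41 to -0.07 for Itgb1, -1.33 to -0.82 for Itgb7, -0.42 to 0.23 for Itgal, -1.22 to 0.0026 for Itgam, 0.70 to 1.45 for Itgax and -0.83 to -0.15 for Itgb2. Itgax also passed the unadjusted threshold after quantile normalization (1.07), after median-of-ratios scaling (1.06) and with the replicate block (1.02, unadjusted p = 0.0077 by limma).

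The replicate numbers share no animal or batch in the labels, and the deviations of same-numbered libraries correlated at 0.19, -0.01 and 0.27, so the numbers were not taken as pairs. With the replicate block, 811 genes and 3 of the 9 passed the unadjusted threshold, and none the adjusted one.

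Of the ratios, Itga4 to Itgb1 reversed with a pseudocount of 0.1 (-0.0317). With a library left out, its difference ranged from -0.50 to 0.28. The ranges of the other ratios that changed sign were -0.28 to 0.99 for Itgal to Itgb2, -0.46 to 0.15 for Itgam to Itgb2, -0.31 to 0.71 for Icam1 to Ptprc, -0.19 to 0.11 for Itga4 to Ptprc, -0.28 to 0.31 for Itgb1 to Ptprc, -0.16 to 0.57 for Itgal to Ptprc, -0.88 to 0.26 for Itgam to Ptprc, -0.48 to 0.12 for Itgb2 to Ptprc and -0.46 to 0.63 for Icam1 to Adgre1. The ratios of Vcam1 to Ptprc (1.11 to 1.73), Itgb7 to Itgb1 (-0.93 to -0.74) and Itgb7 to Ptprc (-1.09 to -0.60) kept their sign.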

Other observations

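Selectins slow leukocytes on the vessel wall before integrins arrest them. Selp, which encodes P-selectin, was at 55.25, 11.81 and 3.99 TPM in WT and at 2.75, 8.10 and 1.14 in C5aR-/- libraries. WT TAM 1 alone set the WT mean, and the difference was -1.87 (adjusted p = 0.413 by limma). Selplg, the gene of the selectin ligand PSGL-1, was at 78.7 ± 27.6 TPM in WT and 45.4 ± 21.1 in C5aR-/- libraries (SD, n = 3), with overlapping groups. Sele, the endothelial selectin, was at most 0.25 TPM. Neither Selp nor Selplg passed a threshold. The neutrophil, peritoneal macrophage, mast cell and monocyte marker sums were lower in the same libraries. The peritoneal macrophage sum was 1416, 410 and 238 TPM in WT and 151, 212 and 99.5 in C5aR-/- libraries. It was highest in WT TAM 1, as Selp was, while the neutrophil and monocyte sums were highest in WT TAM 2. The part of these cell types in the selectin and Selplg values was not tested.

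Genes most like a member over the 6 libraries were ranked by the root mean square difference of centred log2(TPM + 1) among 11085 genes with a mean of at least 5 TPM. Most like Vcam1 were Inpp5j (0.152), Klhdc8a (0.207) and Tanc2 (0.21). Inpp5j was at 17.44, 16.37 and 23.21 TPM in WT and at 56.60, 30.68 and 32.11 in C5aR-/- libraries, with the same single high library as Vcam1. Most like Icam1 were E2f4 (0.032), Hsf2 (0.0395) and Rgp1 (0.0547), all within a narrow range. Most like Itgb2 were Tlr2 (0.0773), Nfkbia (0.128) and Adgre5 (0.148). Tlr2, a receptor for bacterial lipoproteins, was at 60.65, 29.34 and 27.13 TPM in WT and at 44.38, 28.29 and 14.83 in C5aR-/- libraries, so that WT TAM 1 was again highest and C5aR-/- TAM 3 lowest. With 6 libraries and so many candidates, this ranking is a description only.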
